A study of Mus musculus with 8 samples.

Results

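Hemidesmosomes are the plaques by which epithelial cells hold on to the basement membrane. Outside the cell, integrin alpha6 beta4 binds laminin-332, a laminin trimer that holds the alpha3 and beta3 chains, and inside the cell plectin and the epithelial form of dystonin tie the integrin to keratin filaments. Collagen XVII spans the membrane beside the integrin, and the tetraspanin CD151 associates with laminin-binding integrins. The genes described here are Itgb4, Itga6, Lama3, Lamb3, Col17a1, Dst, Plec and Cd151, which are 8 of the 27179 genes in the table of tumor RNA sequencing. They were chosen by the values of this same comparison, because Itgb4 was among the largest rises, and the other 7 genes were taken with it as its partners. The values of these 8 genes are therefore given as a description, without a p-value.

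The tumors were subcutaneous C26 colon carcinomas in adult male CD2F1 mice. The paper does not state the stage at which the sequenced tumors were taken. cxC26 is the cachexia-inducing C26 line. The 4 cxC26 scr tumors grew from cells carrying Cas9 and a scrambled guide RNA, with an intact Il6 gene, and the 4 cxC26 IL6KOs1 tumors grew from 1 subclone of cells in which Il6 had been disrupted with CRISPR/Cas9. Because the knockout is a single subclone and was implanted in larger cell numbers, the loss of IL-6, the choice of the clone and the inoculum cannot be told apart. In the paper, mice with cxC26 IL6KOs1 tumors also reached cachexia later. If the sequenced tumors were taken at cachexia, their time in the host differs between the groups in the same way. Whole tumors were sequenced, so that fewer cells of a type and less RNA per cell cannot be told apart either.

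The recovered read totals were 14158989 to 17048062 in the cxC26 scr tumors and 14222772 to 16232176 in the cxC26 IL6KOs1 tumors. Il6 itself had 356, 326, 376 and 438 reads in cxC26 scr and 64, 56, 86 and 59 in cxC26 IL6KOs1, in which transcripts of the disrupted gene and of host cells are counted alike. Differences were fitted with limma for genes that reached 1 CPM in 4 or more of the 8 tumors, and a gene is said to be called where its Benjamini-Hochberg adjusted p over all of them was under 0.05. Of the epithelial markers, the keratin gene Krt20 was high in all 8 tumors, with 17390 to 22185 reads. Cdx2, the intestinal homeobox factor, had 17 to 34 reads in a cxC26 scr tumor, and 1, 0, 0 and 0 in the cxC26 IL6KOs1 tumors, and 5 of the 8 intestinal epithelium markers did not pass the filter on low expression. One library stood apart in a way that touches these genes. Replicate 1 of cxC26 scr held 158 reads of the 10 epidermis markers that did not pass the filter, such as Krt5 with 59 reads and Krt14 with 28, whereas the other 7 tumors held 1 to 9 reads of all 10 together.

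Itgb4, which encodes the integrin beta4 subunit, the partner of alpha6 in hemidesmosomes, was the member that moved most. It had 224, 105, 65 and 91 reads in cxC26 scr and 1522, 1258, 2378 and 2344 in cxC26 IL6KOs1. Every cxC26 IL6KOs1 tumor lay above every cxC26 scr tumor, with a gap between 224 and 1258 reads. The mean was 2.81 ± 0.66 log2 CPM (reads scaled to the library size, on a log2 scale; SD, n = 4) in cxC26 scr and 6.91 ± 0.44 in cxC26 IL6KOs1, a log2 fold change of 4.10 with a standard error of 0.30, or 17.2-fold. Over all 13262 tested genes, Itgb4 ranked 27 from the top by log2 fold change. When called genes without overlap and averaging 3 log2 CPM or more were ordered, Itgb4 was the fifth by log2 fold change, with Mcpt2 just above it at 4.19 and Acp5 just below it at 3.49.

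Within cxC26 scr, the highest Itgb4 value was in replicate 1, the tumor with the epidermal reads, at 2.92 times the lowest. The 12 epidermis markers summed to 30.1 CPM in that tumor, to 14.0 to 15.3 CPM in the other 3 cxC26 scr tumors and to 12.4 to 16.7 CPM in the cxC26 IL6KOs1 tumors. Of these 12 markers, 2 passed the filter (Krt10 and Sfn) and neither was called, Flg was at 0 in all 8 tumors, and Trp63, the factor that defines basal keratinocytes, had at most 1 read in a tumor. Without replicate 1 of cxC26 scr, the log2 fold change of Itgb4 was 4.41. The part of epidermal RNA in the values of Itgb4 was not tested.

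**Figure D1:**
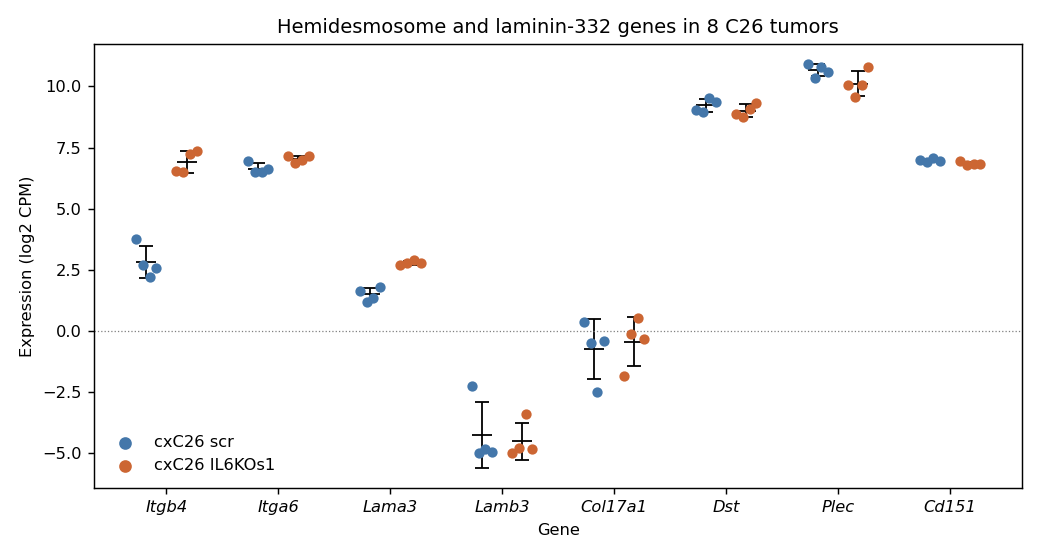
Expression of the 8 genes in log2 CPM (vertical axis) in the 4 cxC26 scr and the 4 cxC26 IL6KOs1 tumors; each point is a tumor, the horizontal bar is the mean and the whiskers are the SD. Itgb4 separates the groups most widely, Lama3 separates them at a lower level, and Lamb3 lies at the bottom of the scale in both groups.

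Itga6 encodes the alpha6 subunit, which pairs with beta4 or with beta1. It had 2063, 1446, 1291 and 1496 reads in cxC26 scr and 2300, 1633, 1985 and 2036 in cxC26 IL6KOs1. The groups overlapped, because on the log2 CPM scale replicate 1 of cxC26 scr, at 6.95, lay above replicate 2 of cxC26 IL6KOs1, at 6.88. The mean log2 CPM went from 6.63 ± 0.22 to 7.03 ± 0.13 (SD, n = 4 each), a log2 fold change of 0.40 with a standard error of 0.11. Without replicate 1 of cxC26 scr it was 0.50.

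Lama3 encodes the alpha3 laminin chain, which is found in laminin-332 and in a few other laminins. It had 51, 36, 36 and 53 reads in cxC26 scr and 105, 93, 117 and 100 in cxC26 IL6KOs1, so that the groups did not overlap at these low levels. The log2 fold change was 1.30 with a standard error of 0.19, or 2.46-fold, from a mean of 1.49 ± 0.28 to 2.79 ± 0.08 log2 CPM (SD, n = 4 each).

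Lamb3, the beta3 laminin chain that is particular to laminin-332, was at or near 0. It had 3, 0, 0 and 0 reads in cxC26 scr and 0, 0, 1 and 0 in cxC26 IL6KOs1, and no fold change is given at or under 3 reads. All 3 reads of the cxC26 scr group were in replicate 1, the tumor with the epidermal reads. Col17a1, the gene of collagen XVII, had 21, 11, 2 and 11 reads in cxC26 scr and 4, 12, 22 and 11 in cxC26 IL6KOs1. These groups overlapped nearly completely, and the highest cxC26 scr value was again in replicate 1. Lamb3 and Col17a1 did not pass the filter and were not tested. A group difference in them was not detectable at this depth.

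Dst encodes dystonin, a large plakin whose epithelial form is a hemidesmosome component, while other forms occur in nerve and muscle. It had 8881, 8139, 10385 and 10128 reads in cxC26 scr and 7625, 5942, 8536 and 9317 in cxC26 IL6KOs1. The groups overlapped, and the log2 fold change was -0.22 with a standard error of 0.15. Plec encodes plectin, the plakin that links integrin beta4 to intermediate filaments and has further forms in muscle. It had 32034, 21289, 25623 and 23914 reads in cxC26 scr and 17237, 10641, 16714 and 25730 in cxC26 IL6KOs1. Replicate 4 of cxC26 IL6KOs1 lay among the cxC26 scr tumors and the other 3 lay below them, and the log2 fold change was -0.55 with a standard error of 0.22. Both values are gene totals, in which epithelial and other forms are counted together.

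That same replicate 4 had the highest sum of the 8 skeletal muscle markers. They summed to 12.8 to 185 CPM in cxC26 scr and to 30.2 to 375 CPM in cxC26 IL6KOs1, and all 8 passed the filter, with Myh4 at 1956 reads in replicate 4 of cxC26 IL6KOs1. In cxC26 scr, in contrast, the tumor with the highest muscle sum, replicate 2, had the lowest Plec value. Without replicate 4 of cxC26 IL6KOs1 the log2 fold change of Plec was -0.78 and Plec was called lower. Leaving out any other single tumor did not lead to a call of Plec. The part of muscle RNA in the Plec values was not tested.

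**Figure D2:**
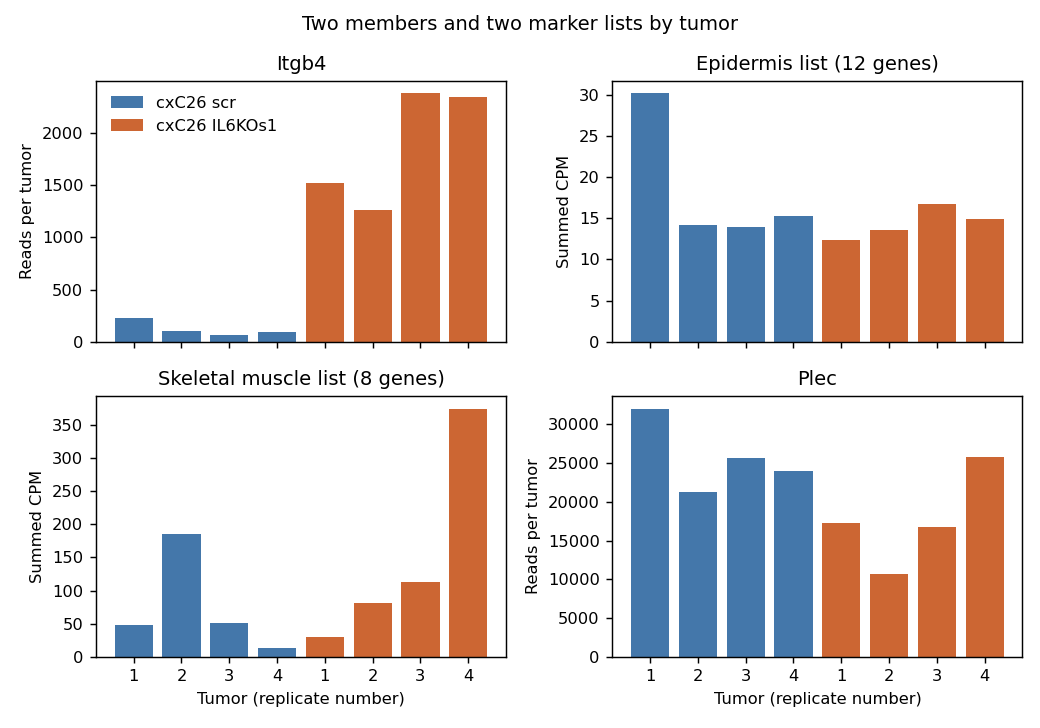
Reads of Itgb4 and Plec and summed CPM of the epidermis and skeletal muscle marker lists in each tumor (horizontal axis, replicate number; bars start at 0). The epidermis sum stands out in cxC26 scr replicate 1, at 30.1 CPM, and the muscle sum in cxC26 IL6KOs1 replicate 4, at 375 CPM, where Plec is also the highest of its group.

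Cd151 encodes the tetraspanin that accompanies alpha6 and alpha3 integrins. It had the smallest spread of the members, with 2097, 1950, 1904 and 1910 reads in cxC26 scr and 1989, 1524, 1765 and 1642 in cxC26 IL6KOs1. The log2 fold change was -0.14 with a standard error of 0.07, and the groups overlapped.

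In the fit with limma over all 13262 tested genes, 6 of the 8 members passed the filter. Of these 6, 3 were called higher (Itgb4, Itga6 and Lama3) beside 19.1% of all tested genes, and 0 were called lower beside 20.7%, or 1 (Plec) at an unadjusted p under 0.05. The groups did not overlap, with cxC26 IL6KOs1 higher, for 2 members (Itgb4 and Lama3) beside 17.8% of all tested genes, and with cxC26 IL6KOs1 lower for 0 members beside 19.3%. Because this contrast chose Itgb4 and with it the family, nothing is read from these counts.

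Members with few reads and an abundant member can be set beside the DNA before their listed start sites. RefSeq start regions on GRCm38.p6 were at hand for 4 of the 8 genes. The 250 bases before the first listed start are shown for Lamb3 and Col17a1, which did not pass the filter, and for Cd151, which was evenly expressed. For Lamb3 this start lies inside the annotated gene, which begins at chr1:193294353. Capitals mark matches, on either strand, to 4 motifs: TGANTCA (AP-1), TTCNNNGAA (STAT), CAGGTG (the E-box bound by ZEB and SNAIL factors) and GGGCGG (the GC box). No 2 matches overlapped in these stretches. The Lamb3 stretch is chr1:193301744-193301993, plus strand, the Col17a1 stretch is chr19:47692043-47692292, minus strand, and the Cd151 stretch is chr7:141467112-141467361, plus strand.
Lamb3: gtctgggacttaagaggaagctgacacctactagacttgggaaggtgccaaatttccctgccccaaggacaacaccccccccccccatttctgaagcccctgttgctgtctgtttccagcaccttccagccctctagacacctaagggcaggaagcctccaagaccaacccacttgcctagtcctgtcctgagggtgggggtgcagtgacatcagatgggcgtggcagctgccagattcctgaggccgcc
Col17a1: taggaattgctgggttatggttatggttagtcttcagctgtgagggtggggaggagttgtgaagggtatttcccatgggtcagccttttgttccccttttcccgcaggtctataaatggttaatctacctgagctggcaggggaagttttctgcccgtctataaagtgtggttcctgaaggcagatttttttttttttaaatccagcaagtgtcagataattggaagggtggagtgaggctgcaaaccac
Cd151: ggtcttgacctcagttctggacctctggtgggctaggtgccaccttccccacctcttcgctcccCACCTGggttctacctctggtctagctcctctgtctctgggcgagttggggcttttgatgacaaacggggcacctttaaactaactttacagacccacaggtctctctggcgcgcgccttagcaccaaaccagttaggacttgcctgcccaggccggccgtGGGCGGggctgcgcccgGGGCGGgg
The Cd151 stretch held 1 CAGGTG match and 2 GGGCGG matches, with 12 CpG dinucleotides and a GC content of 62.4%. The Lamb3 and Col17a1 stretches held no match to the 4 motifs and 2 CpG dinucleotides each, with GC contents of 58.8% and 46.0%. Other listed starts differed. The second Lamb3 start region, directly downstream, held 1 CAGGTG match and 3 CpG dinucleotides, and that of Cd151 held no match and 4. Of the 2 Dst start regions, 1 held 1 CAGGTG and 4 GGGCGG matches with 22 CpG dinucleotides, and the other held no match and 5. Both Dst regions lie inside the annotated gene, and the bases just after them were not found in its GENCODE transcripts. Over 32817 RefSeq start regions of this length, 6.75% held TGANTCA, 7.01% TTCNNNGAA, 17.2% CAGGTG and 32.7% GGGCGG, and the median GC content was 52.4%. These are matches of letters only.

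Levels of different genes were compared per length, as RPKM (the CPM divided by the kilobases of the gene's summed exons). Plec was highest in both groups, at 91.0 ± 14.8 RPKM in cxC26 scr and 64.4 ± 23.7 in cxC26 IL6KOs1 (SD, n = 4). Cd151 followed at 46.0 ± 2.1 and 41.7 ± 2.0 RPKM, and in cxC26 IL6KOs1 its range overlapped with that of Plec. In cxC26 scr the next levels were Dst at 14.7 ± 2.6 and Itga6 at 11.1 ± 1.8 RPKM, whose ranges overlapped, and then Itgb4 at 1.08 ± 0.57. In cxC26 IL6KOs1 the order of these 3 genes was Itgb4 at 17.7 ± 5.3, Itga6 at 14.6 ± 1.3 and Dst at 12.7 ± 2.3 RPKM, and their ranges overlapped. Lama3 stayed low in both groups, at 0.262 ± 0.050 and 0.640 ± 0.038 RPKM. Col17a1, at 0.116 ± 0.076 and 0.136 ± 0.078 RPKM, overlapped with Lama3 in cxC26 scr alone, and Lamb3 was last.

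The ratio of the integrin partners within a tumor shows how far Itgb4 moved relative to Itga6. Itgb4 stood at 14.0%, 9.34%, 6.48% and 7.83% of the Itga6 level per length in the cxC26 scr tumors, and at 85.1%, 99.1%, 154% and 148% of it in the cxC26 IL6KOs1 tumors. Itgb1, the other partner of alpha6, was far more abundant than either, at 339 ± 29 and 337 ± 14 RPKM (SD, n = 4 each). Relative to Itgb1, Itgb4 was at 0.183% to 0.648% in cxC26 scr and at 3.65% to 6.70% in cxC26 IL6KOs1. These ratios compare RNA levels and do not count receptors.

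**Figure D3:**
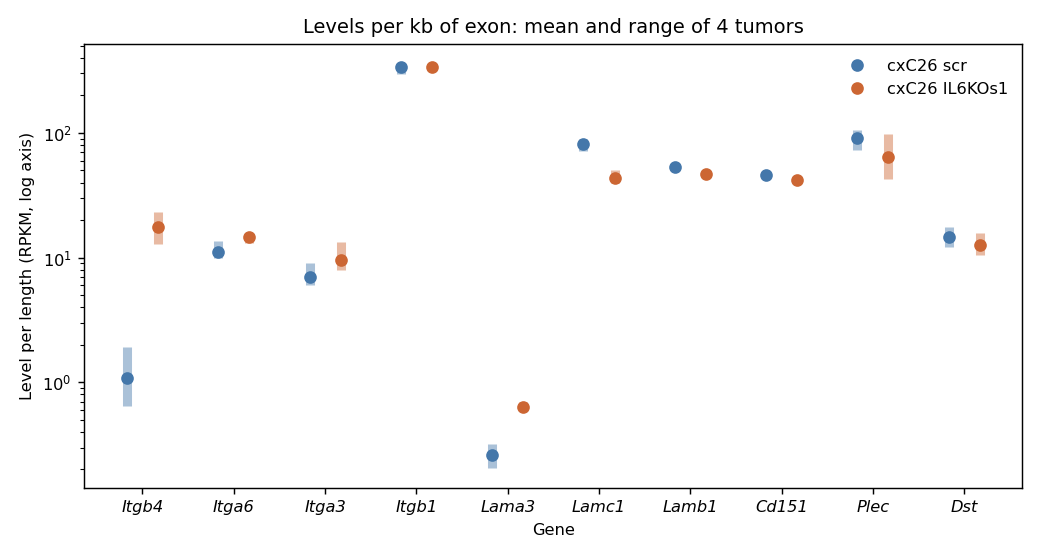
Level per length in RPKM (log axis) of 6 members and 4 partner genes; points are means of 4 tumors and bars span the lowest to the highest tumor. Itgb4 goes from 1.08 to 17.7 RPKM and reaches the range of Itga6, while Itgb1 is at 339 and 337 RPKM.

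Of the 8 other laminin chains reported here, 6 were tested. By limma, 2 were called lower, beside 20.7% of all tested genes, and 0 were called higher, beside 19.1%. The median log2 fold change was -0.27 beside -0.0029 over all tested genes. Lamc1, the gamma1 chain of most other laminins, fell from between 9549 and 12446 reads to between 4533 and 6046 reads (log2 fold change -0.89, standard error 0.11, limma adjusted p = 0.000105). Lamb2, the beta2 chain of the laminins at nerve-muscle junctions and in the kidney filter, also fell, with a log2 fold change of -0.84 and a standard error of 0.08 (limma adjusted p = 2.8e-05).

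Lamb1, Lama2, Lama4 and Lama5 were not called. Lamb1, the beta1 chain, had a log2 fold change of -0.18 with a standard error of 0.09, and Lama2, the alpha2 chain of muscle and nerve laminin, had -0.36 with 0.23. Lama4, the alpha4 chain of blood vessels, had 0.05 with a standard error of 0.20. Lama5, the alpha5 chain of epithelial basement membranes, had 495, 386, 408 and 423 reads in cxC26 scr and 3163, 118, 221 and 280 in cxC26 IL6KOs1. Replicate 1 of cxC26 IL6KOs1 was far above all other tumors and the other 3 were below every cxC26 scr tumor, giving a log2 fold change of -0.08 with a standard error of 0.72. Without that replicate it was -1.05 (limma adjusted p = 0.00296).

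Other integrin subunits were called in both directions, with 6 of 21 tested genes called higher and 5 called lower, beside 19.1% and 20.7% of all tested genes, and a median log2 fold change of 0.36. The lists that follow stand against the same shares of all tested genes. Itgb1, the common beta partner, had 20109 to 23504 reads in cxC26 scr and 20038 to 21656 reads in cxC26 IL6KOs1, a log2 fold change of -0.0043 with a standard error of 0.10 whose sign turned when tumors were re-centred on their medians. Itga3, the alpha subunit of the other main laminin-332 receptor, had a log2 fold change of 0.44 with a standard error of 0.17 and was not called (limma adjusted p = 0.0629). It was called higher with quantile normalization (limma adjusted p = 0.0396), without replicate 1 of cxC26 scr (0.0226) and without replicate 4 of cxC26 IL6KOs1 (0.0487). Itga2, the collagen-binding alpha2 subunit, fell from between 211 and 262 reads to between 19 and 59 reads (log2 fold change -2.62, standard error 0.27, limma adjusted p = 3.04e-05), and Itga5, the fibronectin receptor subunit, fell by 0.66 on the log2 scale (standard error 0.12, limma adjusted p = 0.00137).

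Itgav, the alpha subunit of the vitronectin receptors, rose by 0.34 (standard error 0.07, limma adjusted p = 0.00402) and its partner Itgb5 by 0.37 on the log2 scale (standard error 0.09, limma adjusted p = 0.0085). Itgb3, which pairs with the same alpha subunit and with that of platelets, rose by 0.78 (standard error 0.19, limma adjusted p = 0.00648). The largest rises among the other subunits were in integrins of leukocytes, namely Itgb7 (log2 fold change 2.55, standard error 0.20, limma adjusted p = 4.44e-06), Itgb2 (1.45, standard error 0.22) and Itgam (1.36, standard error 0.18). The 6 leukocyte markers, which include Itgam, summed to 185 to 230 CPM in cxC26 scr and to 359 to 717 CPM in cxC26 IL6KOs1, and 4 of the 4 tested were called higher. Itgax, a dendritic cell and macrophage subunit, went the other way, with a log2 fold change of -1.89 and a standard error of 0.39 (limma adjusted p = 0.00259). Further subunits found on leukocytes were not called, namely Itgal (0.36, standard error 0.46), Itga4 (0.70, standard error 0.28) and Itgae (0.36, standard error 0.28). The part of leukocyte RNA in the subunit values was not tested.

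**Figure D4:**
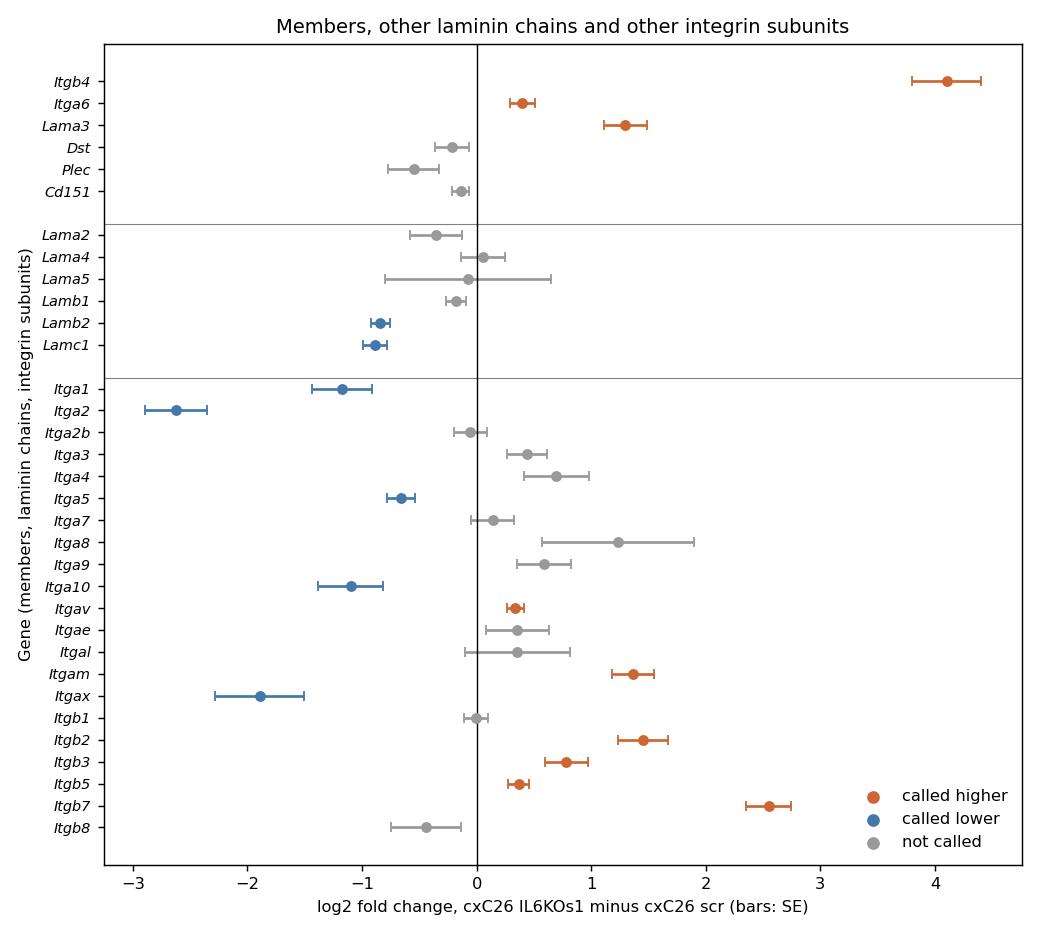
Log2 fold change, cxC26 IL6KOs1 minus cxC26 scr (horizontal axis), of the 6 tested members (top), 6 other laminin chains (middle) and 21 other integrin subunits (bottom); bars are standard errors and colour shows the limma call. Itgb4 at 4.10 lies to the right of all other genes shown, and Itga2 at -2.62 to the left.

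Desmosomes anchor keratin as hemidesmosomes do, and their genes were listed together with the other plakins. Of 13 genes, 6 were tested and 4 were called higher, with a median log2 fold change of 1.07 beside -0.0029 over all tested genes. Among these 4, Pkp2 passed the filter only through cxC26 IL6KOs1. It had 10 to 13 reads in a cxC26 scr tumor and 17 to 26 in a cxC26 IL6KOs1 tumor. The count and the median are therefore not independent of the filter. Ppl, the gene of periplakin, rose from between 41 and 55 reads to 306, 201, 589 and 722 reads (log2 fold change 3.08, standard error 0.33, limma adjusted p = 4.37e-05). Pkp3, a desmosomal plaque protein, rose by 1.54 (standard error 0.19, limma adjusted p = 0.000109), and Jup, the gene of plakoglobin, by 1.23 on the log2 scale (standard error 0.18, limma adjusted p = 0.000321). Macf1, a plakin that binds actin and microtubules, had -0.22 with a standard error of 0.12 and was not called. The 7 genes not tested included Dsp, the gene of desmoplakin. It had 17, 2, 0 and 1 reads in cxC26 scr and 2, 0, 0 and 1 in cxC26 IL6KOs1. The listed desmosomal cadherins Dsg2, Dsg3, Dsc2 and Dsc3 were not tested either, with at most 12 reads in a tumor.

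Keratins of simple epithelia, to which plectin attaches, were mostly low apart from Krt20. Krt18 rose from between 21 and 30 reads to between 140 and 282 reads (log2 fold change 3.20, standard error 0.23, limma adjusted p = 3.02e-06). Krt20 had a log2 fold change of 0.21 with a standard error of 0.10 and was not called (limma adjusted p = 0.102), although its groups did not overlap. Of the 3 tested intestinal epithelium markers, 1 was called higher, beside 19.1% of all tested genes, and 1 was called lower, beside 20.7%. Cdh1, the gene of E-cadherin, rose from between 17 and 37 reads to between 45 and 87 reads (log2 fold change 1.46, standard error 0.30, limma adjusted p = 0.00251). Cdx2 was called lower (limma adjusted p = 4.18e-05), and Lgals4 was not called (limma adjusted p = 0.854). The filter admitted Cdx2 only through the cxC26 scr tumors, the group in which it was high.

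Of 15 tested basement membrane genes, 8 were called lower, beside 20.7% of all tested genes, and 1 was called higher, beside 19.1%, with a median log2 fold change of -0.53 beside -0.0029. Nid1, the gene of nidogen, which joins laminin to collagen IV, fell by 1.45 (standard error 0.10, limma adjusted p = 1.76e-06). Npnt, the gene of nephronectin, a basement membrane ligand of integrins, fell by 1.60 (standard error 0.19), Fras1 by 1.37 (standard error 0.32), and Col4a1, a collagen IV chain, by 0.66 on the log2 scale (standard error 0.10). Hspg2, the gene of perlecan, had -0.53 with a standard error of 0.18 and passed the threshold (limma adjusted p = 0.0358), a call that was lost when any 1 of 6 of the 8 tumors was left out.

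The proteases that cut laminin-332 or shed collagen XVII were also listed. Of 10 tested, 3 were called higher and 1 was called lower. Mmp9, a gelatinase, rose from 113, 156, 60 and 53 reads to 2792, 2340, 4935 and 3438 reads (log2 fold change 5.27, standard error 0.29, limma adjusted p = 6.72e-07). Adam10 and Adam9, both sheddases, rose by 0.51 and 0.41 on the log2 scale (standard error 0.09 each, limma adjusted p = 0.0014 and 0.00333). Mmp2 had a log2 fold change of -0.01 with a standard error of 0.13 and was not called. Plat, the tissue plasminogen activator, had -0.71 with a standard error of 0.24, and its call (limma adjusted p = 0.0326) was lost in 4 of the 8 fits that left out a tumor.

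Tetraspanins, the family of Cd151, had 4 of 15 tested genes called higher and 1 called lower. Those with the largest rises were the leukocyte tetraspanins Cd37 (log2 fold change 2.19, standard error 0.46, limma adjusted p = 0.00295) and Cd53 (0.78, standard error 0.14, limma adjusted p = 0.00122), followed by Tspan9 (0.78, standard error 0.21, limma adjusted p = 0.0133), whose groups overlapped. Cd63 and Cd9, the most abundant, had 0.24 with a standard error of 0.11 and -0.10 with a standard error of 0.09, and were not called.

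Among the kinases and adaptors that work with alpha6 beta4, 7 of 16 tested genes were called lower and 3 were called higher. Egfr, the epidermal growth factor receptor, fell from between 622 and 724 reads to between 47 and 81 reads (log2 fold change -3.35, standard error 0.14, limma adjusted p = 1.02e-07). Irs1, an insulin receptor substrate, fell by 1.08 (standard error 0.18, limma adjusted p = 0.000755), while Mst1r, the receptor of macrophage-stimulating protein, rose by 1.69 on the log2 scale, from between 9 and 19 reads to between 23 and 74 (standard error 0.36, limma adjusted p = 0.00306). Rhoa and Rac1, small GTPases of the cytoskeleton, were abundant and not called, at 0.02 and 0.0023 with standard errors of 0.10 and 0.12.

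Adaptors of focal adhesions, the other kind of integrin contact, had 3 of 16 tested genes called higher and 4 called lower, with a median of -0.09. Fermt3, the leukocyte kindlin, rose by 1.13 (standard error 0.15, limma adjusted p = 0.000229), Lims1 rose by 0.76 (standard error 0.09, limma adjusted p = 8.26e-05) and Parvb fell by 0.43 on the log2 scale (standard error 0.13, limma adjusted p = 0.0172). Tln1 and Parva, the most abundant, were not called, at 0.17 with a standard error of 0.13 and -0.21 with a standard error of 0.11.

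The transcription factors that promote or repress epithelial genes had 1 of 8 tested called higher and 4 called lower. Klf4, an epithelial factor, rose by 1.36 (standard error 0.15, limma adjusted p = 5.57e-05) and Klf5, its relative of intestinal crypts, fell by 1.38 on the log2 scale (standard error 0.13, limma adjusted p = 2.09e-05). Of the repressors, Zeb1 fell by 0.83 (standard error 0.12, limma adjusted p = 0.000259) and Twist1 by 0.43 on the log2 scale (standard error 0.09, limma adjusted p = 0.00216). Snai1 was also called lower (-0.47, standard error 0.14). Zeb2 (-0.16, standard error 0.11) and Snai2 (0.16, standard error 0.17) were not called.

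Several cell types outside the epithelium were followed by their markers. The 8 Schwann cell markers summed to 14.0 to 16.7 CPM in cxC26 scr and to 13.3 to 19.4 CPM in cxC26 IL6KOs1, with Mbp called higher among 4 tested (log2 fold change 0.94, standard error 0.23, limma adjusted p = 0.00731) and the defining factor Sox10 at no more than 6 reads in a tumor. The 8 endothelial markers summed to 124 to 197 CPM and 131 to 165 CPM, with Vwf called lower among 8 tested (log2 fold change -0.78, standard error 0.18, limma adjusted p = 0.00515) and Pecam1 at 0.05 with a standard error of 0.11. The 6 platelet markers, with 4 tested and none called by limma or at an unadjusted p under 0.05, summed to 26.6 to 42.8 CPM and 28.4 to 57.3 CPM. The 6 fibroblast markers summed to 7657 to 10179 CPM and 5477 to 8605 CPM, with 1 called higher and 2 called lower. In each of these 4 sums the groups overlapped, whereas the leukocyte sums given above did not. The part of any of these cells in the Itgb4 values was not tested.

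The place of Itgb4 in the genome was examined next. On GRCm38.p6 it lies on chr11:115974725-116008412, plus strand, and its last 3' bases overlap Galk1, a galactokinase gene. Galk1 went the other way, from 1538, 1628, 1422 and 1467 reads to 1214, 988, 1086 and 774 reads (log2 fold change -0.54, standard error 0.11, limma adjusted p = 0.00191). A noncoding gene inside Itgb4, B230344G16Rik, had 62 reads over all 8 tumors. Of the 59 other tested genes within 1 Mb of Itgb4, 8 were called higher and 13 lower, with a median log2 fold change of -0.05 and a highest value of 2.21 (Cd300e). The median over the 1072 tested genes of chromosome 11 was -0.15.

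**Figure D5:**
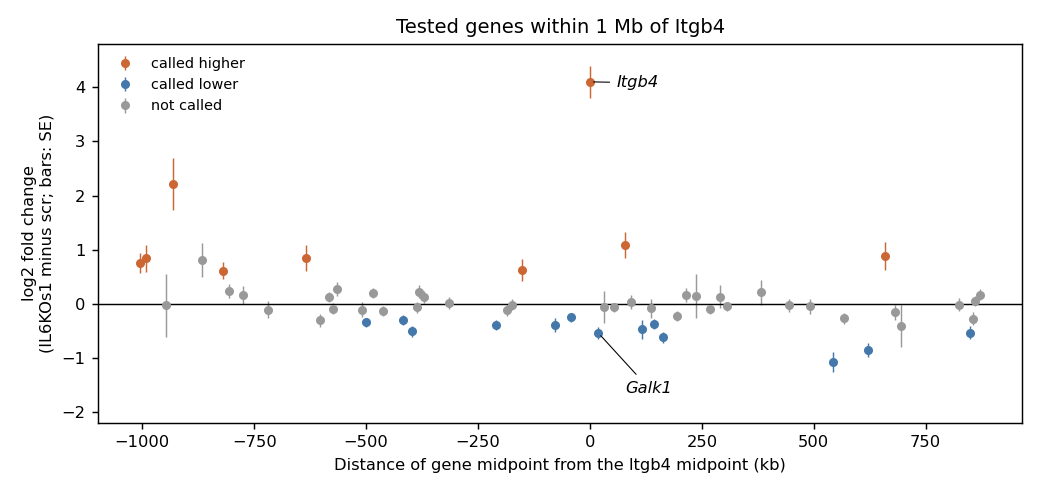
Log2 fold change (vertical axis; bars, SE) of the tested genes within 1 Mb of Itgb4 against the distance of each gene's midpoint in kb. Itgb4 at 4.10 stands above its neighbours, the highest of which is at 2.21, and the overlapping Galk1 is at -0.54.

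The other members lie on 6 further chromosomes. Lamb3 and Dst are both on chromosome 1, where the median log2 fold change of 758 tested genes was -0.34. The value of Dst, -0.22, lay above that median and above the -0.31 of its 12 tested neighbours within 1 Mb. Cd151 is on chromosome 7, with a median of -0.27, Plec on chromosome 15, with 0.14, and Lama3 on chromosome 18, with -0.07. Itga6 is on chromosome 2, with a median of -0.08, and Col17a1 on chromosome 19, with 0.33. Dst also overlaps Bend6 at its 5' end, which rose from between 45 and 57 reads to between 130 and 174 reads (log2 fold change 1.61, standard error 0.17, limma adjusted p = 3.85e-05). The library kit does not mark strand, so reads in such overlaps cannot be assigned.

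The genes whose pattern over the 8 tumors was most like that of Itgb4 were Ctsk, Ogn, Ckb, Slc9b2 and Ms4a4b, by the root mean square difference of log2 CPM after each gene was centred on its own mean. Ctsk, the gene of the collagen-cutting protease cathepsin K, was nearest, with a difference of 0.48. It had 566, 410, 353 and 399 reads in cxC26 scr and 4433, 2639, 6996 and 4568 in cxC26 IL6KOs1. As with Itgb4, its highest cxC26 scr value was in replicate 1. The differences were 0.51 for Ogn, an extracellular matrix proteoglycan, 0.56 for Ckb, a creatine kinase, 0.57 for Slc9b2, a sodium-proton exchanger, and 0.59 for Ms4a4b, a lymphocyte membrane protein. Because most of this likeness lies in the group difference, it describes the 8 tumors and was not tested.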

How the data were processed

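Polyadenylated RNA of 8 tumors was sequenced, 4 in each group, and groups and replicate numbers were taken from the sample titles. The labels number the tumors without naming the mouse of each, so the p-values measure the spread between these samples. The values deposited by the authors are log2 CPM from limma-voom, made after read trimming (Trimmomatic), alignment to mm10 (Hisat2) and counting per gene (featureCounts). Per the submitters' processing notes, bcl2fastq 2.17 was used. Other versions, the annotation and the strand setting are not given in the sources used here. The deposited log2 values hold an offset of 0.5 reads and 1 read in the library size. Inverting it gave whole reads for 100% of values at a tolerance of 0.01.

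The deposited log2 values were fitted with limma 3.58.1 in R 4.3.3 (lmFit, eBayes with a mean-variance trend, no covariates) for the 13262 genes that reached 1 CPM in 4 or more of the 8 tumors. Adjustment over these genes was by Benjamini-Hochberg, and genes under 0.05 were called. Count models were not run. RPKM used recovered reads, effective library sizes and the exon union of GENCODE M21, which for long genes with several forms exceeds any single transcript. Positions and start regions came from RefSeq on GRCm38.p6. The fit was also run on simulated counts in which all genes had the same dispersion. That run checked the code only, and nothing about the tumors is read from it.

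The members and the gene lists were chosen with earlier results of these data known. Genes named are the 8 members, Itgb1 and Itga3, every other laminin chain tested (except that 1 listed gene is not reported here), up to 3 called genes of largest change and 2 of highest level in each list, the 5 genes most like Itgb4, genes overlapping a member in the annotation, and Il6. Cell type markers beyond this rule, such as Krt5, Krt14, Flg, Trp63 and Sox10, were named after their values were seen, as were Mcpt2 and Acp5, the genes next to Itgb4 in the ranking, and Cd300e. The untested desmosome genes Dsp, Dsg2, Dsg3, Dsc2 and Dsc3 were also named in this way. So were Pkp2, Zeb2, Snai1, Snai2, Itgal, Itga4 and Itgae. Alternatives were other filters, quantile normalization, re-centring on tumor medians, the replicate number as a block, a variance without trend, voom precision weights, a pseudocount of 1 CPM, a 2-fold threshold and leaving out each tumor.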

Additional observations from a re-analysis of the deposited data

Results flagged for a closer look

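The genes selected by the naming rule and the summed cell type markers gave 192 groups of 4 tumors to examine. Of these, 12 had a tumor set apart from the other 3 by more than Dixon's 95% critical value. Chance sets apart about 9.6 (1 in 20). Among the members it was Lamb3, at -2.25 log2 CPM in cxC26 scr replicate 1 and at -3.39 in cxC26 IL6KOs1 replicate 3, which are 3 reads and 1 read against 0 in the others. The same cxC26 scr replicate 1 was high for the summed epidermis markers (30.1 CPM, against 14.0 to 15.3), Npnt (5.01 log2 CPM), Parvb (7.44) and Ctsk (5.09), and low for Itgb1 (10.24 log2 CPM, against 10.48 to 10.50) and Adgre1 (4.76). Replicate 1 of cxC26 IL6KOs1 was high for Fermt3 (5.44 log2 CPM), Mbp (2.48) and Cdx2 (-3.44, which is 1 read). Replicate 3 of cxC26 IL6KOs1 was high for Il6 (2.46 log2 CPM, against 1.99 to 2.04).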

How the results depend on the processing

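Of 265 values recomputed under the alternatives, 253 kept their direction and their side of the threshold, or a count within 1.5 times. Itgb4 (3.90 to 4.41 over all alternatives), Itga6 (0.35 to 0.50) and Lama3 (1.06 to 1.40) were called higher under every alternative in which they were tested, except that Itga6 lost its call where at least a 2-fold change was required, which left 2 members higher. Under the filter at a mean of 3 log2 CPM Lama3 was not tested. Because the same contrast chose Itgb4 and with it the family, nothing is read from the members keeping their calls. Plec became called lower, so that 1 member was lower instead of 0, with quantile normalization (-0.68), with the replicate block (-0.55) and without cxC26 IL6KOs1 replicate 4 (-0.78), and ranged from -0.78 to -0.37 when each tumor was left out. Leaving out each tumor gave 0 to 1 members lower. Requiring at least a 2-fold change left 0 other laminin chains lower, 3 other integrin subunits higher, 8 genes of the related lists higher and 6 lower, and 829 genes higher and 521 lower overall. The replicate numbers did not pair the tumors, with correlations of -0.06, 0.06, 0.02 and -0.06 between same-numbered deviations. With the replicate block, 2477 genes were higher and 2688 lower, and no call of a member other than that of Plec changed, while Itga3 became called higher (limma adjusted p = 0.00721). The naming rule selected 55 called genes outside the members, some of which, such as Myh1 and Col3a1, are not described above. Of these 55, 49 remained called under every alternative other than the 2-fold threshold in which they were tested. Hspg2, Tspan9, Plat, Parvb, Myh1 and Col3a1 did not. The 2-fold threshold kept 33 of the 55. Genes of few reads, such as Lamb3 and Col17a1, are limited by depth.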
